A study of Mus musculus with 12 samples.

Results

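The comparison described here sets bone marrow-derived macrophages (BMDM) lacking Camkk2 (KO) against wild-type (WT) BMDM, both cultured in a soft matrix with IL-4. It was chosen by its labels and by the measured level of Camkk2. Of the 12 libraries of the series 4 belong to it, 2 labelled WT soft+IL-4 and 2 labelled KO soft+IL-4. It is the condition in which the level of Camkk2 followed the genotype label in every library. The series asks how matrix stiffness and CaMKK2 act on macrophage activation, and its other 8 libraries are 2 each of WT soft, KO soft, WT stiff and KO stiff. Polyadenylated RNA was sequenced from strand-specific libraries, and the deposited values are TPM, a level per transcript length with an equal total in every library.

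The mice were C57Bl/6 aged 8 to 10 weeks. The labels give both sexes for the series as a whole and not the sex behind these 4 libraries. The KO was a germline deletion, so that every cell of the donor lacked the gene through development, and which animals or litters served as controls is not given in the sources used here. Bone marrow cells were grown in medium conditioned by L929 cells, a source of the macrophage growth factor M-CSF. They were then encapsulated in a collagen and hyaluronic acid hydrogel, kept in culture for 48 h, and released by digestion with collagenase IV at 400 U/mL. All 4 libraries received IL-4 in the unstiffened gel, at a concentration that the labels do not give. The labels speak of 2 biological replicates in each group without saying whether these were separate animals. Within each genotype, the titles of the 2 IL-4 libraries carry the same number after the word soft. They differ only in the number after IL-4, whereas the soft libraries without IL-4 differ in the soft number. Whether the same soft number means a shared source of cells is not stated. The p-values therefore measure only the spread between these samples.

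CaMKK2 is a kinase that is switched on by calcium-bound calmodulin and that phosphorylates CaM kinases and the energy sensor AMPK. IL-4 binds its receptor on macrophages, activates the transcription factor STAT6 and turns on the alternative activation programme, with genes such as Retnla, Chil3, Mrc1 and Arg1. Interferon-stimulated genes are a separate programme, switched on through interferon receptors, and several of its members lie in clusters of closely similar copies.

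The libraries themselves set limits to what follows. Macrophage markers were high in all 4: the 14 marker genes were all above 1 TPM and summed to between 29676 and 31137 TPM. The 7 T or NK cell markers in the table summed to at most 1.44 TPM and the 11 fibroblast or stromal markers to at most 1.83 TPM. The male-expressed gene Ddx3y lay between 16.7 and 18.9 TPM, and the female-expressed Xist was listed at 0 in all 4, which goes against RNA from both sexes in these libraries. The share of the 14098 genes in the table that were listed at 0 was 13.3% and 5.99% in the WT libraries and 11.7% and 6.98% in the KO libraries, so in both genotypes it was higher in library 1. The SD of the log2 difference between libraries over the tested genes was 0.32 between the WT replicates and 0.28 between the KO replicates, while WT soft+IL-4 2 lay nearer to the KO libraries, at 0.30 and 0.25, and nearest of all to WT stiff 2, at 0.18. Both KO libraries were also nearest to WT stiff 2, at 0.27 and 0.22. In the other conditions the Camkk2 level went against the label of WT soft 2, of KO soft 1 and of KO stiff 1. Of the tests, the other 8 libraries entered only the fit on all 12 libraries and the interaction tests that follow the report. Elsewhere they are described by values, distances and counts with no test.

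Camkk2 was lower in both KO libraries. Its level was 30.5 and 29.8 TPM in the WT libraries, and 11.5 and 8.54 TPM in the KO libraries. The groups did not overlap, and the KO mean was 33.3% of the WT mean. The log2 fold change of KO against WT, here and below on log2(TPM + 1), a scale that makes changes at low TPM look smaller, was -1.51. The condition was chosen because Camkk2 follows the label in it, so these values are a description with no test, although Camkk2 is counted among the called genes below. The values are per gene, so they do not show which exons the remaining reads came from. Apart from Camkk2, none of the 28 tested genes of the CaM kinase and AMPK pathway passed the test described next, and they lay between -0.25 and 0.18 on the log2 scale.

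Differences between the genotypes were few. Of the 10619 genes that reached 1 TPM in 2 or more of the 4 libraries, 20 were differentially expressed (DE), which here means a limma p, Benjamini-Hochberg adjusted, under 0.05 with a log2 fold change of 1 or more in size. These 20 are 0.188% of the genes tested, and 10 were higher and 10 lower in KO, 0.0942% each. Of the tested genes, 78 stayed under 1 TPM in both libraries of 1 genotype and so passed this filter only through the other, and 1 of these, Car9, was DE. The most strongly raised were interferon-inducible or related genes (Ifi202b, Gbp2b, Ifi44l, Ifi44), and the most strongly lowered were 2 neighbouring apolipoprotein genes (Apoc2, Apoe). In all 20 the KO libraries lay on one side of the WT libraries, but so they did in 39.3% of all tested genes. Without the fold threshold 71 genes passed the test (0.669%), 41 of them higher (0.386%) and 30 lower (0.283%). Of the 71, 48 passed in all 4 fits that left out 1 library, and most of those named below that did not are given as such. The median log2 fold change over all tested genes was 0.01. The number of DE genes turned on 1 library: it was 62 without WT soft+IL-4 2, and between 17 and 26 when any of the other 3 was left out. When all 12 libraries shared 1 estimate of the spread, limma called 0 genes, 226 had an unadjusted p under 0.05, and 10 of the 20 DE genes were among those. For a single gene, with 2 libraries against 2, an exact permutation test cannot give a two-sided p below 0.333, so every call rests on the spread that limma shares across genes.

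**Figure D1:**
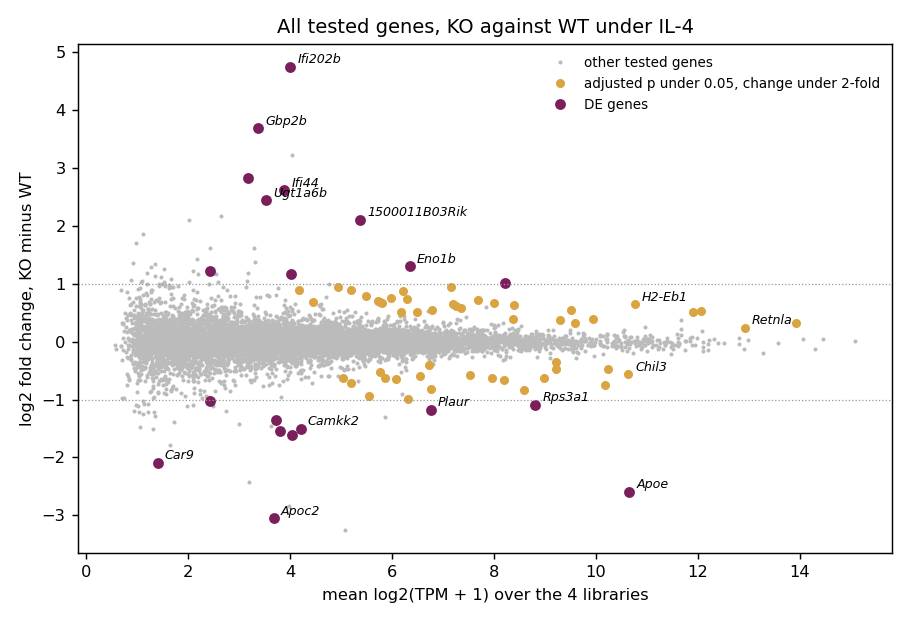
Log2 fold change of KO against WT under IL-4 (y axis) against the mean log2(TPM + 1) of the 4 libraries (x axis), with 1 point for each of the 10619 tested genes; dotted lines mark a log2 fold change of -1 and 1. Most genes lie close to 0, the 20 DE genes include Ifi202b at 4.74 and Apoc2 at -3.05, and most of the other genes that passed the test are highly expressed genes with small changes.

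Beyond a log2 fold change of 1 in either direction lay 75 genes, and 55 of these did not pass the test. Those 55 were mostly weakly expressed, with a median of 2.40 TPM over the 4 libraries against 19.4 TPM for the DE genes. Some varied between replicates of 1 genotype by as much as between genotypes: BC002163, named after its values were seen, had 167 and 62.3 TPM in WT and 72.7 and 0.605 TPM in KO.

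The start regions of 4 of the genes that changed most are shown because the raised genes include known interferon targets, whose promoters often carry an interferon-stimulated response element (ISRE). Each runs from 250 bases before to 50 bases after the start of the gene in RefSeq (GRCm38.p6), 5′ to 3′ on the strand of the gene. The windows are chr3:142594597-142594896 (+ strand) for Gbp2b, chr1:173982795-173983094 (- strand) for Ifi202b, chr3:151749861-151750160 (- strand) for Ifi44 and chr7:19677892-19678191 (- strand) for Apoc2. Capitals mark a match to the ISRE-like motif GAAANNGAAA or, on the other strand, TTTCNNTTTC.
Gbp2b: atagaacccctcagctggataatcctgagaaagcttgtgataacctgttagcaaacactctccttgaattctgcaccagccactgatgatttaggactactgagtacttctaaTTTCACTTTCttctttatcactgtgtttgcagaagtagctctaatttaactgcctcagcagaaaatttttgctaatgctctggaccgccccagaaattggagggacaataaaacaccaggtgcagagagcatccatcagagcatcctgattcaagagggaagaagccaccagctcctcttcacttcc
Ifi202b: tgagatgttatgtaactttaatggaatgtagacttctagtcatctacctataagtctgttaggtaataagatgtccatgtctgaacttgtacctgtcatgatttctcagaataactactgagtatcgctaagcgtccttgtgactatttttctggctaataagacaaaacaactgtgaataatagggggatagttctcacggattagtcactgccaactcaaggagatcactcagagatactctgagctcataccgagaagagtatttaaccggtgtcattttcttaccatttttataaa
Ifi44: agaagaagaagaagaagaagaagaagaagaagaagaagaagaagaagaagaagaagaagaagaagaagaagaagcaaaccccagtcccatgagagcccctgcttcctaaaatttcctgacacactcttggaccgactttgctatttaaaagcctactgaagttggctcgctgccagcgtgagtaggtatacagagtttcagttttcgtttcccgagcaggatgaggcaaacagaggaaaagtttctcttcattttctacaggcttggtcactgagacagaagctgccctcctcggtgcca
Apoc2: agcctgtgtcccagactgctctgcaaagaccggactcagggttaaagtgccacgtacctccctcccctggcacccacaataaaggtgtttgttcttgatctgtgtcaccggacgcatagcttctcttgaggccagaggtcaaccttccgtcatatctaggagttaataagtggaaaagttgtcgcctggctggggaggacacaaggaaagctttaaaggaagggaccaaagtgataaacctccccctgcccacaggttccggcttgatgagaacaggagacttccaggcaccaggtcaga
The motif was present in 1131 of 32851 mouse promoter windows of this length (3.44%). Of the 17 DE genes with a window, it was found in Gbp2b alone, beginning 137 bases before the start of the gene, among 7 windows of higher genes, and in 0 of 10 windows of lower genes. A STAT6-like motif, TTCNNNNGAA, which reads the same on both strands, was present in 6.95% of all windows and, among the DE genes, in Cd5l only. Only exact matches were counted. The windows of Ifi44 and Xaf1 hold tttcagtttt, which differs from TTTCNNTTTC in its last base alone. Such near matches are left out, so a window without a match may still hold a similar element. These counts describe letters in short windows and do not show binding.

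The raised interferon-inducible genes were low in WT and well expressed in KO. Ifi202b, a member of the Ifi200 family of DNA-binding proteins, had 2.15 and 2.03 TPM in WT and 80.4 and 82.5 TPM in KO. Gbp2b, a guanylate-binding protein of the interferon-induced GTPase family, had 2.00 and 1.78 TPM in WT and 34.2 and 37.9 TPM in KO. Both genes were near the 1 TPM filter in WT and uniformly raised in KO, by 38.9-fold and 19.1-fold in mean TPM, with log2 fold changes of 4.74 ± 0.097 and 3.68 ± 0.12 (SE; limma adjusted p = 8.5e-06 and 0.000105). Levels of both genes are known to differ between inbred mouse strains.

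Ifi44 and Ifi44l, neighbouring interferon-induced genes on chromosome 3 with a gap of 8.78 kb between them, rose together. Ifi44 had 5.17 and 4.72 TPM in WT and 34.9 and 35.8 TPM in KO. Ifi44l had 1.95 and 2.89 TPM in WT and 18.8 and 28.1 TPM in KO. The KO replicates of Ifi44 were nearly equal and those of Ifi44l were further apart, yet neither gene overlapped between genotypes, with log2 fold changes of 2.61 ± 0.10 and 2.82 ± 0.22 (SE; limma adjusted p = 0.00022 and 0.00386). Xaf1, an interferon-induced antagonist of the apoptosis inhibitor XIAP, had 9.12 and 10.4 TPM in WT and 22 and 24.3 TPM in KO, a smaller rise of 1.16 ± 0.11 on the log2 scale (limma adjusted p = 0.00875).

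Most interferon-stimulated genes did not move like these. Of 56 tested genes of a list of them, 2 were DE, Ifi44 and Xaf1, both higher (0.0942% of all tested genes were). The list does not hold Ifi202b, Gbp2b or Ifi44l. Irf7, the interferon regulatory factor that amplifies the response, passed the test at a smaller fold, with 43.6 and 42.7 TPM in WT and 67.5 and 70.4 TPM in KO (log2 fold change 0.66, limma adjusted p = 0.0111), and did so whichever library was left out. Gbp2 passed in the opposite direction, with 139 and 146 TPM in WT and 82.9 and 78.7 TPM in KO (log2 fold change -0.81, limma adjusted p = 0.00386). The median of the list was 0.09, 43 of its 56 genes had a positive value, and in 26 both KO libraries were above both WT libraries against 3 below, where all tested genes gave 21.2% above and 18.2% below. Ifit3, an antiviral effector, had 11.8 and 12.5 TPM in WT and 13.5 and 14.6 TPM in KO (limma adjusted p = 0.667). Cxcl10, an interferon-inducible chemokine, had 8.64 and 4.10 TPM in WT and 2.29 and 3.07 TPM in KO and did not pass (log2 fold change -0.94, limma adjusted p = 0.402), but passed without WT soft+IL-4 2, at -1.40 (limma adjusted p = 0.034).

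The Ifi200 and guanylate-binding families each had members that passed in both directions. Gbp2b and Gbp2, 1.42 kb apart on chromosome 3, moved in opposite directions, and the tested guanylate-binding genes were not counted. In the Ifi200 family, of 8 tested members, Ifi202b and its neighbour Ifi203 were higher and Mnda was lower, where all tested genes gave 0.386% and 0.283%. Ifi203, also chosen after its values were seen, had 15.5 and 17.0 TPM in WT and 27.0 and 26.5 TPM in KO (log2 fold change 0.69, limma adjusted p = 0.0333). Mnda, chosen likewise, had 42.8 and 49.2 TPM in WT and 28.6 and 26.3 TPM in KO (log2 fold change -0.72, limma adjusted p = 0.0332). The median of the 8 was -0.30, and the large rise of Ifi202b was not shared by most of the family. Ifi203 failed the test when any library but WT soft+IL-4 2 was left out and Mnda without KO soft+IL-4 2, while Ifi202b passed in each such fit. These genes have close copies between which a quantification can divide reads, and the level of any single copy is uncertain.

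Other raised genes had no common role. Ugt1a6b, one of the enzymes that attach glucuronic acid to drugs and bilirubin, had 5.38 and 2.78 TPM in WT and 25.7 and 25.7 TPM in KO, a log2 fold change of 2.44 ± 0.23 (limma adjusted p = 0.00807). It shares its last exons with the other members of its locus, of which Ugt1a7c was also higher, with 53.4 and 53.9 TPM in WT and 92.1 and 107 TPM in KO, while Ugt1a6a had 2.69 and 4.15 TPM in WT and 4.87 and 4.30 TPM in KO. Eno1b, a copy of the glycolytic enzyme enolase, had 59.3 and 43.6 TPM in WT and 128 and 126 TPM in KO, a log2 fold change of 1.30 ± 0.13 (limma adjusted p = 0.0105). Eno1, from which reads of Eno1b are hard to separate, had 959 and 912 TPM in WT and 848 and 831 TPM in KO, slightly lower in KO.

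The gene 1500011B03Rik, of no function stated here, had 17.6 and 20.6 TPM in WT and 91.3 and 79.8 TPM in KO (log2 fold change 2.11 ± 0.11, limma adjusted p = 0.000817). Clstn1, calsyntenin, a calcium-binding membrane protein of the cadherin superfamily, had 2.78 and 2.34 TPM in WT and 7.77 and 6.72 TPM in KO (log2 fold change 1.21). Erdr1, a gene with copies on the sex chromosomes, had 241 and 181 TPM in WT and 433 and 408 TPM in KO (log2 fold change 1.01). None of the 3 overlapped between genotypes, but Clstn1 was no longer DE when either KO library was left out, and Erdr1 was lost without KO soft+IL-4 1 or WT soft+IL-4 2.

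**Figure D2:**
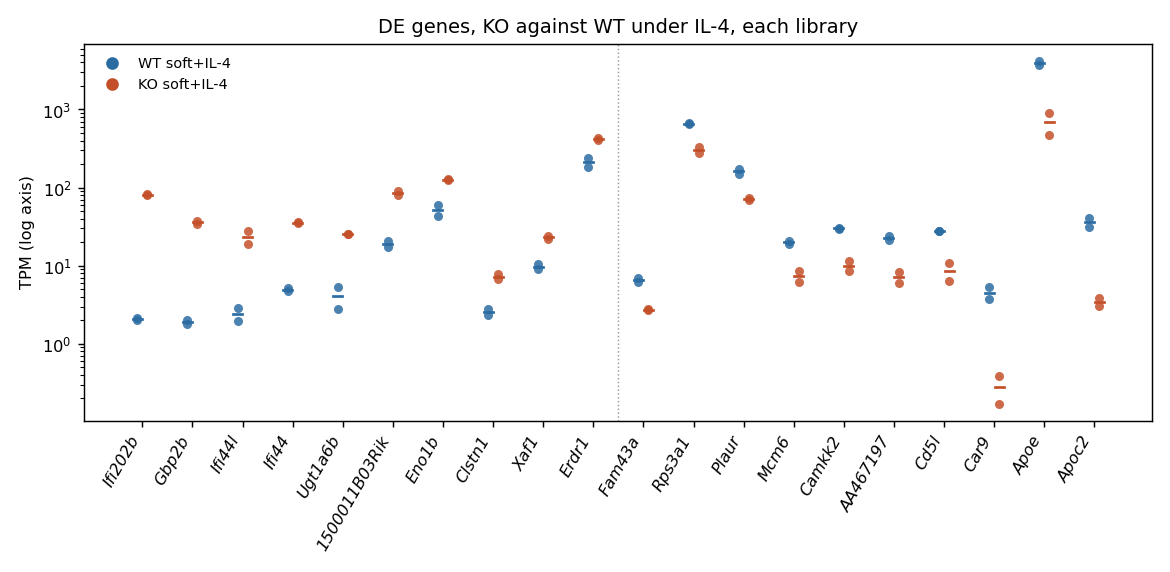
TPM on a log axis (y) of the 20 DE genes (x) in the 2 WT (blue) and 2 KO (orange) soft+IL-4 libraries, 1 point a library and a bar at the mean; genes left of the dotted line were higher in KO. No gene overlaps between genotypes, from Ifi202b with about 2 against 81.5 TPM on the left to Apoc2 with 36.1 against 3.46 TPM on the right.

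The lowered genes were led by lipid carriers. Apoe, apolipoprotein E, which loads cholesterol leaving the macrophage onto lipoproteins, had 4162 and 3757 TPM in WT and 909 and 468 TPM in KO. Apoc2, apolipoprotein C-II, the activator of lipoprotein lipase, had 40.7 and 31.5 TPM in WT and 3.07 and 3.84 TPM in KO. Both fell in both KO libraries, to 17.4% and 9.58% of the WT mean, with log2 fold changes of -2.60 ± 0.27 and -3.05 ± 0.16 (SE; limma adjusted p = 0.0104 and 0.000817), and Apoe was the most abundant DE gene. The genes are neighbours in 1 cluster on chromosome 7, with 18.2 kb between them. The call of Apoe was lost with robust fitting and with no filter on low values, and that of Apoc2 was not. Both calls were lost with all 12 libraries in 1 model.

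Cd5l, a secreted protein of tissue macrophages that binds lipids and is a target of the cholesterol-sensing receptor LXR, had 27.7 and 27.9 TPM in WT and 10.9 and 6.36 TPM in KO (log2 fold change -1.62 ± 0.21, limma adjusted p = 0.0295). It was called in each fit that left out 1 library except that without WT soft+IL-4 1. The fatty acid-binding proteins Fabp4 and Fabp5, chosen after their values were seen, passed at smaller folds. Fabp4 had 521 and 503 TPM in WT and 307 and 264 TPM in KO, and Fabp5 had 1534 and 1472 TPM in WT and 928 and 865 TPM in KO (log2 fold changes -0.84 and -0.74). Of 23 tested genes of lipid efflux and LXR targets, 3 were DE, all lower (0.0942% of all tested genes were), and at any fold 5 were lower and 1 higher, where all tested genes gave 0.283% and 0.386%. The one that was higher was Cd36, the fatty acid and oxidized lipoprotein receptor, with 814 and 890 TPM in WT and 1084 and 1158 TPM in KO (log2 fold change 0.40), which failed without KO soft+IL-4 2 or WT soft+IL-4 1. The median of the list was 0.00, and the exporters Abca1 and Abcg1 had 0.27 and -0.02 on the log2 scale and were not called. Of 23 genes of cholesterol synthesis, 0 were called at any fold, and their median was -0.02.

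Among the other lowered genes, Plaur, the urokinase receptor of pericellular proteolysis and adhesion, had 175 and 149 TPM in WT and 72.8 and 69.0 TPM in KO (log2 fold change -1.17 ± 0.088, limma adjusted p = 0.00386). AA467197, the mouse counterpart of human NMES1, had 23.9 and 21.5 TPM in WT and 6.04 and 8.33 TPM in KO (log2 fold change -1.55 ± 0.16, limma adjusted p = 0.00951). Both were called whichever single library was left out. Rps3a1, a protein of the small ribosomal subunit with many processed copies in the genome, had 644 and 662 TPM in WT and 334 and 280 TPM in KO (log2 fold change -1.09 ± 0.083, limma adjusted p = 0.00386). Its log2 fold change was -0.96 without KO soft+IL-4 2, under the fold threshold. Fam43a had 7.03 and 6.24 TPM in WT and 2.80 and 2.71 TPM in KO (log2 fold change -1.02, limma adjusted p = 0.0495), the DE gene nearest to the threshold, and was lost in each of the 4 fits with 1 library left out.

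Genes on the lists of the IL-4 response that passed the test did so under the fold threshold, in both directions. None of the 26 tested genes of the IL-4 and STAT6 pathway passed the test at any fold, and their median log2 fold change was 0.04 (range -0.38 to 0.37). Of 36 alternative activation effectors, 0 were DE, 4 were higher and 3 lower at smaller folds, where all tested genes gave 0.386% and 0.283%, and the median was 0.02. The study names some of these genes for its own expression results, so their choice is not independent of these samples.

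The effectors that were higher in KO were Ccl24, Cd36, Il4i1 and Retnla. Retnla, a secreted protein that is a hallmark of alternative activation, had 7138 and 7096 TPM in WT and 8488 and 8355 TPM in KO (log2 fold change 0.24 ± 0.029, limma adjusted p = 0.0199). Il4i1, an IL-4-induced amino acid oxidase, had 298 and 280 TPM in WT and 382 and 374 TPM in KO (log2 fold change 0.39 ± 0.052, limma adjusted p = 0.0333). Both changes were small, with no overlap between genotypes, and neither call held in most fits with 1 library left out. Retnla passed only without WT soft+IL-4 2 and Il4i1 only without WT soft+IL-4 1, and the limma adjusted p in the other fits with 1 library left out was up to 0.105 and 0.132. Ccl24, an eosinophil-attracting chemokine named after its values were seen, had 115 and 116 TPM in WT and 180 and 183 TPM in KO (log2 fold change 0.65, limma adjusted p = 0.0048).

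The effectors that were lower were Chil3, Ear2 and Rnase2a, which all have close copies, so that their levels are uncertain in the same way. Chil3, a chitinase-like protein, had 1926 and 1911 TPM in WT and 1341 and 1256 TPM in KO (log2 fold change -0.56 ± 0.044, limma adjusted p = 0.00386). Ear2, an RNase of the eosinophil-associated family, had 221 and 231 TPM in WT and 164 and 139 TPM in KO (log2 fold change -0.58 ± 0.084, limma adjusted p = 0.0442). Chil3 passed whichever library was left out, and Ear2 only when that library was KO soft+IL-4 1 (limma adjusted p up to 0.0792 in the others). Rnase2a failed without KO soft+IL-4 2 or WT soft+IL-4 1, with a limma adjusted p up to 0.104. With KO soft+IL-4 2 left out, 1 effector was higher and 1 lower, and with WT soft+IL-4 1 left out 2 and 1.

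The next effectors did not pass the test. The study's text names Mrc1 but not Mgl2 or Arg1. Mrc1, the mannose receptor CD206, had 180 and 195 TPM in WT and 218 and 217 TPM in KO (log2 fold change 0.22 ± 0.06, limma adjusted p = 0.306). Mgl2, a C-type lectin, had 295 and 282 TPM in WT and 337 and 334 TPM in KO (log2 fold change 0.22, limma adjusted p = 0.197). In both genes the KO libraries were above the WT libraries, as in 21.2% of all genes. Arg1, the arginase that draws arginine away from nitric oxide synthesis, had 242 and 40.3 TPM in WT and 70.3 and 39.1 TPM in KO. The high value came from WT soft+IL-4 1 alone, the groups overlapped, and the log2 fold change was -0.91 ± 0.74 (limma adjusted p = 0.775). It was -2.19 without WT soft+IL-4 2 (limma adjusted p = 0.0152), which then left that 1 library to stand for WT.

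Lgals3, galectin-3, lay between 11940 and 12256 TPM in the 4 libraries, with a log2 fold change of -0.02. The chemokines Ccl17 and Ccl22, ligands of CCR4, had log2 fold changes of -0.10 and -0.16, at 28.9 to 33.3 TPM and 108 to 122 TPM. Socs1, an inhibitor of cytokine signalling, had -0.10, Fn1, fibronectin, -0.25, Itgb3, an integrin subunit, 0.22, and Tlr7, an endosomal RNA receptor, -0.13. For these 7 genes the limma adjusted p lay between 0.365 and 0.896, which does not show that the genotypes were alike.

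**Figure D3:**
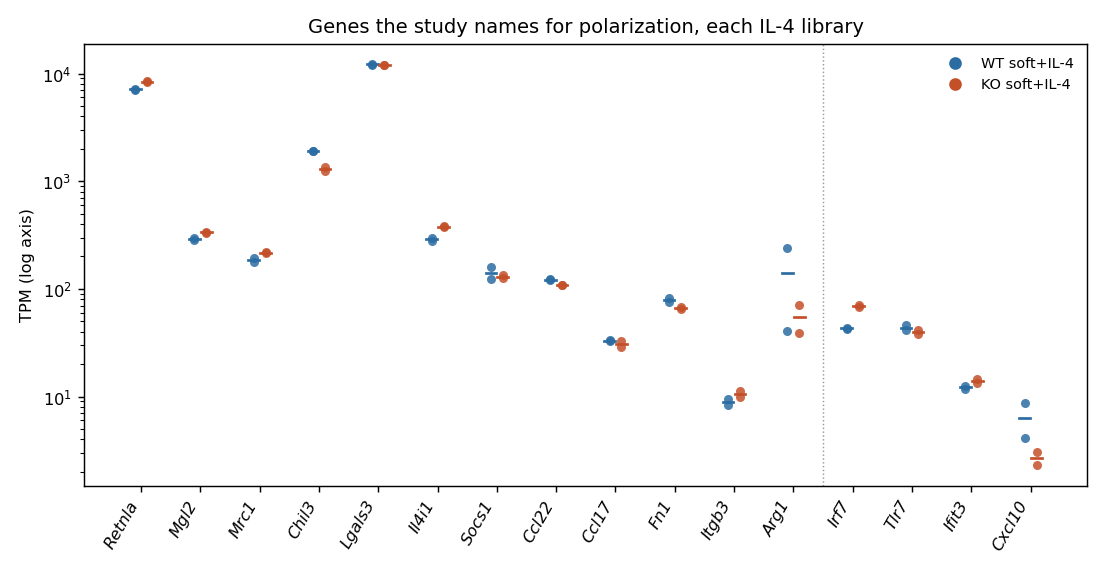
TPM on a log axis (y) of 16 genes (x) chosen from the study or for polarization, in the 2 WT (blue) and 2 KO (orange) soft+IL-4 libraries. A bar marks the mean. Genes of alternative activation, chemokines, Fn1 and Itgb3 are left of the dotted line, those of interferon and Toll-like receptor signalling right of it. The study's text names all of them except Mgl2, Il4i1, Socs1 and Arg1. Retnla at a mean of 7117 against 8422 TPM and Chil3 at 1918 against 1299 TPM separate narrowly, and the 2 WT libraries of Arg1 lie at 242 and 40.3 TPM.

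Core genes of MHC class II presentation, which shows peptides to CD4+ T cells, were higher in KO under IL-4. Of the 13 tested genes 0 were DE, but 4 passed the test at a smaller fold, all higher (0.386% of all tested genes were), and these were the 2 chains of H2-A, the beta chain of H2-E and the invariant chain Cd74. Cd74 had 14069 and 13924 TPM in WT and 17354 and 17743 TPM in KO (log2 fold change 0.33 ± 0.028, limma adjusted p = 0.00531). H2-Eb1, chosen after its values were seen, had 1386 and 1389 TPM in WT and 2163 and 2166 TPM in KO (log2 fold change 0.64 ± 0.035, limma adjusted p = 0.000953). H2-Aa and H2-Ab1 each had a log2 fold change of 0.52, and the 3 H2 genes lie within 1 cluster on chromosome 17. Without IL-4, H2-Eb1 was higher in library 2 of each group. It had 1497 and 2335 TPM in WT soft, 1485 and 2341 TPM in KO soft, 1083 and 1609 TPM in WT stiff, and 1437 and 2286 TPM in KO stiff. The part of library number in the difference under IL-4 was not tested. The count of 4 was the same whichever library was left out, and the median of the list was 0.33. Of 22 tested genes of MHC class I and the immunoproteasome 0 passed at any fold, with a median of 0.10.

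A few CC chemokines, which attract monocytes and lymphocytes, were also higher. Of 28 tested inflammatory cytokines and chemokines, 0 were DE and 3 were higher at smaller folds (0.386% of all tested genes were): Ccl2 (log2 fold change 0.70), Ccl8 (0.75) and Ccl5 (0.57). Ccl2 had 38.8 and 42.3 TPM in WT and 71.1 and 61.9 TPM in KO. Ccl8 had 50.4 and 44.7 TPM in WT and 78.2 and 82.6 TPM in KO. Both were clear of overlap, but without KO soft+IL-4 1 or WT soft+IL-4 1 only Ccl8 of the list passed as higher. Of 26 Toll-like receptors and adaptors 0 passed, with a median of 0.01.

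Genes of DNA replication and the cell cycle had mostly negative values without passing the test. The 1 that passed was Mcm6, a subunit of the replicative helicase, with 20.6 and 19.2 TPM in WT and 8.47 and 6.14 TPM in KO (log2 fold change -1.35 ± 0.15, limma adjusted p = 0.015). Of the 36 tested genes of the list, 1, Cenpe, passed the filter only through the WT libraries. Of the other 35, 28 had a negative log2 fold change, and in 20 both KO libraries were below both WT libraries and in 0 above, where all tested genes gave 18.2% and 21.2%. Their median was -0.24. The other helicase subunits had -0.34 (Mcm5), -0.30 (Mcm3), -0.20 (Mcm2), -0.05 (Mcm7) and 0.02 (Mcm4), and the difference between Mcm6 and these partners was not tested.

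Glycolysis and hypoxia genes had mostly negative values too. Car9, carbonic anhydrase 9, a membrane enzyme known for its induction by hypoxia, had 5.28 and 3.74 TPM in WT and 0.391 and 0.172 TPM in KO (log2 fold change -2.10). Its values are a description, since it was low in all 4 libraries and entered the test only through the WT libraries, as did Egln3, and its call was lost without WT soft+IL-4 1. Of the other 31 tested genes of the list 0 passed at any fold, 25 had a negative log2 fold change, 17 had both KO libraries below both WT libraries and 2 above, where all tested genes gave 18.2% and 21.2%, and the median was -0.10. The 76 tested genes of oxidative phosphorylation had a median of 0.00, and 0 were called.

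Of the 7 tested monocyte markers, Ly6c2 passed the filter only through the WT libraries. The other 6 had a negative log2 fold change, with a median of -0.21, and 1 of them, Chil3, passed the test. The summed level of the 10 markers was 2053 and 2034 TPM in WT and 1449 and 1360 TPM in KO, most of it from Chil3. Of the defining markers, Ccr2 had 28.7 and 31.2 TPM in WT and 28.2 and 27.4 TPM in KO, and Ly6c2 had 2.30 and 1.85 TPM in WT and 0.156 and 0.964 TPM in KO. Of the 14 macrophage markers, C1qa was higher (log2 fold change 0.54), and Adgre1, which encodes F4/80, had 460 and 482 TPM in WT and 494 and 524 TPM in KO. The part of these markers in the lower Chil3, Mcm6 and cell cycle values was not tested, and in bulk RNA fewer cells of a type and less RNA per cell cannot be told apart. The neutrophil markers summed to 136 and 141 TPM in WT and 153 and 157 TPM in KO, dendritic cell markers to 920 to 951 TPM, B cell markers to 121 to 139 TPM, and mast cell or basophil markers to 27.9 to 33.2 TPM. Erythroid markers summed to 138 to 165 TPM, platelet markers to 93.9 to 114 TPM, osteoclast markers to 837 to 971 TPM and eosinophil markers, most of it Ear2, to 148 to 238 TPM.

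The remaining lists held few or no called genes. Over all tested genes 0.188% were DE, and at any fold 0.386% were higher and 0.283% lower. Plaur was the 1 DE gene among 19 genes of matrix and matrix remodelling, and 0 of 26 integrins and adhesion genes and 0 of 12 mechanosensitive channel and YAP target genes passed at any fold, with medians of 0.00 and 0.04. Piezo1, a stretch-gated channel, had 50.8 and 45.1 TPM in WT and 47.6 and 49.8 TPM in KO. Of 34 lysosomal genes 1 passed, the collagen-degrading cathepsin Ctsk, which was lower (82.5 and 83.9 TPM in WT, 54.5 and 51.6 TPM in KO), and of 17 iron genes 1 passed, the ferrireductase Steap3, which was higher but failed without KO soft+IL-4 2 or WT soft+IL-4 1. Of 34 scavenger and phagocytic receptors 2 were higher and 2 lower, and 0 passed among 28 oxidative stress, 22 immediate early, 25 p53 target, 28 heat shock and unfolded protein response, and 22 arginine and polyamine genes. The 4 tested sex-linked genes had a median of 0.00 and 0 were called.

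The chromosomal position of the changed genes was compared with that of the tested genes, because a deletion made in one strain and bred into another can carry flanking sequence of the first. Of the 153 tested genes within 10 Mb of Camkk2 on chromosome 5 (chr5:122731170-122779409, GRCm38), 4 passed the test at any fold, 2.61% against 0.669% of all genes, and 2 were DE, Camkk2 itself and 1500011B03Rik (chr5:114808196-114823468). The others were Gltp, a glycolipid transfer protein, and Rplp0, a ribosomal protein, with log2 fold changes of -0.62 and -0.48. Within 20 Mb the count was 5 of 318 (1.57%), the fifth being Ccl24. The rule of the comparison did not use position, but 4 genes are few, 1 of them is the deleted gene, and whether flanking sequence plays a part was not tested.

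**Figure D4:**
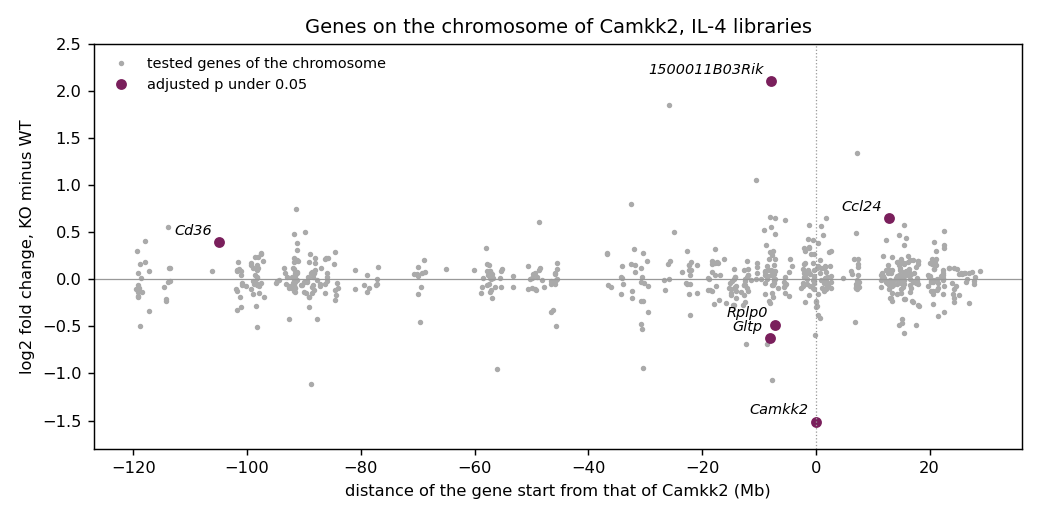
Log2 fold change of KO against WT under IL-4 (y axis) against the distance in Mb of each tested gene's start from that of Camkk2 (x axis), for its chromosome; filled purple points passed the test. Gltp, Rplp0 and 1500011B03Rik lie within 10 Mb on one side of Camkk2, Ccl24 lies within 20 Mb on the other, and Cd36 far away.

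Some changed genes had a changed neighbour. Among the 71 genes that passed at any fold, 68 had a position, and 12 pairs involving 21 genes lay within 100 kb of each other. In 11 of the pairs the direction was the same, as in Ifi44 and Ifi44l, Apoc2 and Apoe, Ifi203 and Ifi202b, the H2 genes, Ccl2 and Ccl8, and Tmem176a and Tmem176b, and Gbp2b and Gbp2 were the pair that moved in opposite directions. How often tested genes lie this close, or share a direction when they do, was not counted. The H2 cluster gave several of the pairs. Ugt1a7c and Ugt1a6b overlap in position, as do Tmem176a and Tmem176b. Chromosome 3 held 13 of the 68 (19.1%) and 4.70% of the tested genes, among them Gbp2b, Gbp2, Ifi44, Ifi44l, Cd5l, Rps3a1, Chil3, Fabp4 and Fabp5. This was the largest share of any chromosome, and chromosomes 10, 12, 15, X and Y held 0.

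The same genes were then read in the other 8 libraries. On the log2 scale, the 19 DE genes other than Camkk2 were counted as nearer to the KO or to the WT mean under IL-4. In WT soft 1 and 2, 3 and 15 of the 19 were nearer to KO, and in KO soft 1 and 2, 2 and 14. In KO stiff 1 and 2 the counts were 1 and 14, and in WT stiff 1 and 2 they were 5 and 5. The Camkk2 levels of WT soft were 44.2 and 11.7 TPM, those of KO soft 46.6 and 11.5 TPM. In KO stiff they were 37.7 and 10.0 TPM, and in WT stiff 23.3 and 23.7 TPM. The libraries with 14 or 15 genes nearer to KO were those with about the Camkk2 level of the KO soft+IL-4 libraries, whichever genotype their label named. They were also all library 2 of their group, and their partners WT soft 1, KO soft 1 and KO stiff 1 were all library 1. Camkk2 level and library number thus went together in these groups, and the part of each was not tested. As the labels of 3 of the 8 libraries and their Camkk2 level disagree, genotype itself cannot be compared in the soft and stiff matrix from them. The interaction tests further below compare these libraries only as labelled. Genes that passed at smaller folds were not counted in this way. Of these, H2-Eb1, Chil3, Fabp4, Fabp5 and C1qa differed more between libraries 1 and 2 of WT soft, and of KO soft, than between these labels. No test was made of the counts of genes nearer to KO.

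Ifi202b and Apoe give this by library. Ifi202b had 0.321 and 67.7 TPM in WT soft and was listed at 0 and had 78.4 TPM in KO soft. In the stiff matrix it had 34.9 and 28.9 TPM in WT and 1.34 and 79.4 TPM in KO. The WT stiff libraries thus lay between the levels seen elsewhere, as they did for Camkk2. Apoe had 8727 and 1362 TPM in WT soft and 8891 and 1234 TPM in KO soft, low where Ifi202b was high. In the stiff matrix the WT libraries had 3424 and 2873 TPM of Apoe and the KO libraries 7767 and 1092 TPM.

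**Figure D5:**
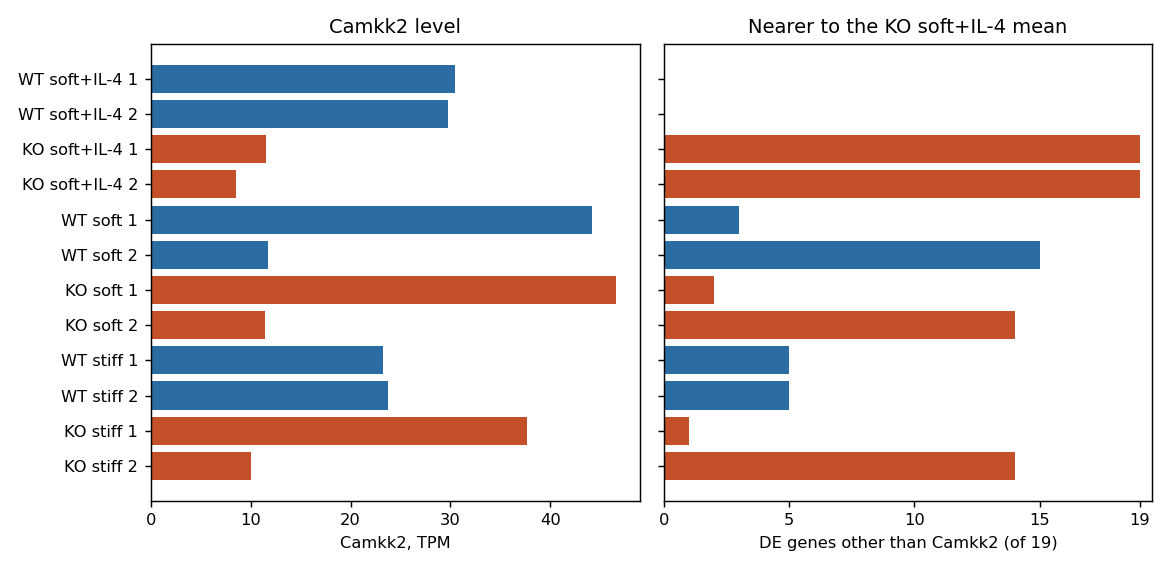
Left, Camkk2 in TPM (x axis) in each of the 12 libraries (y axis), blue for WT and orange for KO labels; right, the number of the 19 DE genes other than Camkk2 that lay nearer to the KO than to the WT mean of the soft+IL-4 libraries, which is 0 or 19 in those 4 libraries because they define the means. The 3 libraries with 10.0 to 11.7 TPM of Camkk2 (KO stiff 2, KO soft 2 and WT soft 2) have 14 or 15 genes nearer to KO, and the other 5 have 1 to 5.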

How the data were processed

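The authors deposited 1 table of TPM for all 12 libraries. The submitters' processing notes name Trim Galore 0.6.7, Salmon 1.4.0 and mm10, while the study's methods describe snakePipes with STAR, featureCounts and DESeq, and the annotation behind the table is not given in the sources used here. TPM keep no read counts, so sequencing depth is unknown and no counting error is given. Columns were matched to samples by their names, and 0 value columns were left out.

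Genes that reached 1 TPM in 2 or more of the 4 soft+IL-4 libraries were tested on log2(TPM + 1), with a pseudocount of 1, by limma 3.58.1 in R 4.3.3 (lmFit and eBayes with a trend, prior degrees of freedom 4.71, no covariates) and Benjamini-Hochberg adjustment over all tested genes. A count model was not used, since TPM are not counts. The scripts were tested on simulated data. Python 3.11.15 with pandas 2.3.3 made the tables. Positions came from GENCODE vM21 (GRCm38), in which 13544 of 14098 symbols matched, and 17 DE genes had a promoter window in RefSeq. Hand-written gene lists held 961 entries, 903 found in the table, 4 of these through a synonym.

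Named were Camkk2, the genes the study's text names for its expression results together with Arg1, Il4i1, Socs1 and Mgl2, which that text does not name, the 12 largest rises and 12 largest falls among DE genes with a mean of at least 5 TPM in 1 genotype, the called members of each list (at most 6, or the 2 most abundant where none was called), DE genes within 10 Mb of Camkk2 and 5 sex-linked genes. Genes called only at a smaller fold, members of lists given by value, and copies and neighbours fall outside this rule, and their values were seen before they were chosen. The comparison, its members and the lists were chosen with earlier results of these data known. The alternatives were another pseudocount, other filters, scaling, thresholds, robust fitting, a replicate block, all 12 libraries in 1 model and leaving out each library.

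Under the same replicate number, the deviations of KO and WT libraries correlated at -0.03 over genes, and the labels tie the numbers to no animal or day, so they were not taken as pairs.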

Additional observations from a re-analysis of the deposited data

Results flagged for a closer look

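In a linear model over all 12 libraries, the difference of KO against WT under IL-4 was compared with the same difference in the stiff matrix (interaction term, limma, Benjamini-Hochberg adjusted). Among the named genes 4 differed. Il4i1 had a log2 fold change of 0.39 under IL-4 and -1.51 in the stiff matrix, a difference of 1.90 ± 0.19 (SE, limma adjusted p = 0.00468), with 232 and 304 TPM in WT stiff and 85.9 and 99.7 TPM in KO stiff. Itgb3 differed by 1.52 (limma adjusted p = 0.0179), with 10.2 and 9.92 TPM in WT stiff and 3.74 and 3.24 TPM in KO stiff. Tfrc, the transferrin receptor, differed by 1.54 (limma adjusted p = 0.00546), with 0.16 under IL-4 and -1.38 in the stiff matrix. Lyz2, lysozyme, differed by -1.20 (limma adjusted p = 0.0232), with 19076 and 20502 TPM in WT stiff and 40543 and 42671 TPM in KO stiff. Over all genes 113 passed this test, and 0 passed the same test against the soft matrix, where 154 genes fell under an unadjusted p of 0.05. In the soft matrix each labelled genotype held a library with a high and one with a low Camkk2 level. These were 44.2 and 11.7 TPM in WT soft, and 46.6 and 11.5 TPM in KO soft. The count of 0 therefore cannot show whether the genotype difference was the same there as under IL-4. The stiff libraries that carry the differences named above include KO stiff 1, whose Camkk2 level (37.7 TPM) goes against its label, so the differences are between the libraries as labelled. They also include WT stiff 1, which stood apart: the SD of its log2 difference over genes was 0.65 from WT stiff 2 and 0.65 to 0.78 from the other libraries, against 0.28 to 0.36 for the other 5 replicate pairs. The values without it were not computed, and groups of 2 allow no outlier test.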

How the results depend on the processing

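The count of 20 DE genes (10 higher, 10 lower) was between 19 and 23 with a pseudocount of 0.1, a filter at 5 TPM, median-of-ratios scaling, robust fitting, an adjusted p under 0.1 or a replicate block. It was 7 (4 higher, 3 lower) with no filter on low values and 9 (6 higher, 3 lower) when the log2 fold change had to be 2 or more in size. It was 71 (41 higher, 30 lower) with no minimum fold change, an alternative chosen after seeing the data. With all 12 libraries in 1 limma model it was 0 (0 higher, 0 lower), with 226 genes at an unadjusted p under 0.05. That model's spread includes the 3 libraries whose Camkk2 level goes against their label, and it was not fitted without them. The cause of these changes in the count was not tested. With 1 library left out, limma takes the lone library of a genotype to vary like the other group, and the count ranged from 17 to 62 (10 to 38 higher, 7 to 24 lower). The 62 came without WT soft+IL-4 2, and 18 of the 20 genes were among them.

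The log2 fold change of Camkk2, given as a description, was -1.51 under most alternatives, from -1.71 to -1.31 with 1 library left out, and had an adjusted p of 0.0645 with no filter and of 1.00 with all 12 libraries. At -1.51 it did not reach a log2 fold change of 2 in size. No direction of the 89 other named genes was reversed under the alternatives run.

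Replicate numbers were not taken as pairs. Library 1 had the higher share of genes listed at 0 in all 6 groups (10.7% to 13.4%, against 5.90% to 7.54% in library 2), and whether this follows a shared batch was not tested. With the number as a replicate block, 22 genes were called (13 higher, 9 lower), 19 of the 20 among them, and Fam43a was lost. The unknown depth leaves low values, such as those of Car9, without an error of their own, and 2 libraries for each genotype limit every test.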

Other observations

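Further genes that passed the test at a smaller fold, chosen after their values were seen, belonged to no list above or were not described there. Npy, neuropeptide Y, had 115 and 105 TPM in WT and 55.9 and 53.9 TPM in KO (log2 fold change -0.99, limma adjusted p = 0.00386), just under the fold threshold. Saa3, an acute-phase protein made by macrophages, had 99.7 and 104 TPM in WT and 211 and 185 TPM in KO (log2 fold change 0.95, limma adjusted p = 0.00403). Both lay clear of overlap between genotypes, as all 71 genes that passed did.

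Among the genes chosen in this way were 3 receptors, and how many receptor genes did not change was not counted. Ifnar1, a subunit of the type I interferon receptor, had 32.9 and 33.5 TPM in WT and 55.2 and 60.6 TPM in KO (log2 fold change 0.78, limma adjusted p = 0.0102). Tgfbr2, a receptor for TGF-beta, had 28.0 and 24.2 TPM in WT and 50.6 and 47.3 TPM in KO (log2 fold change 0.89, limma adjusted p = 0.013). Cxcr4, the receptor for CXCL12, had 121 and 124 TPM in WT and 179 and 198 TPM in KO (log2 fold change 0.61, limma adjusted p = 0.013). Of the complement genes chosen in the same way, C3 had 205 and 201 TPM in WT and 321 and 320 TPM in KO, and C1qa had 607 and 605 TPM in WT and 866 and 903 TPM in KO. C1qb, the partner chain of C1qa, had 3100 and 2991 TPM in WT and 3565 and 3477 TPM in KO and did not pass (log2 fold change 0.21, limma adjusted p = 0.0855), nor did C1qc, with 1901 and 1734 TPM in WT and 2143 and 2184 TPM in KO (log2 fold change 0.25, limma adjusted p = 0.14).

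Mfge8, a bridging protein for the uptake of apoptotic cells, was lower, with 630 and 626 TPM in WT and 418 and 395 TPM in KO (log2 fold change -0.63, limma adjusted p = 0.00386). Cd47, the signal that restrains uptake by macrophages, was higher, with 87.3 and 92.6 TPM in WT and 128 and 137 TPM in KO (log2 fold change 0.55, limma adjusted p = 0.0209), but failed without KO soft+IL-4 2 or WT soft+IL-4 1.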
